A study of Mus musculus with 9 samples.

Results

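The 10 genes described here encode the 5 subunits of the transcription factor NF-kB (*Nfkb1*, *Nfkb2*, *Rel*, *Rela* and *Relb*) and 5 proteins grouped here as its inhibitors (*Nfkbia*, *Nfkbib*, *Nfkbie*, *Nfkbiz* and *Tnfaip3*). They were taken by gene symbol from a table of 17596 genes, and all 10 were present and passed the expression filter that left 10823 genes for testing. The table held RNA-seq values of mouse splenic B cells in 9 libraries of 4 groups. B cells of *Mb1*Cre mice, the controls, and of *Mct1*f/f*Mb1*Cre mice, labelled cKO, were analysed on day 0, untreated (n = 2 libraries for each genotype), and on day 3 of stimulation by LPS at 10 μg/ml together with IL-4 at 50 ng/ml (n = 2 and n = 3). Both genotypes carried the *Mb1*-Cre allele, which is active throughout the B cell lineage. The *Mct1*f/f mice, on a C57BL/6J background, had floxed sites at exon 1 and intron 3 of *Mct1* (*Slc16a1*, a plasma membrane transporter of lactate, pyruvate and other monocarboxylates). Mutant mice were used at 6 to 8 weeks of age. The comparisons ask how this gene set changed with activation and whether it differed when *Mct1* had been targeted.

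NF-kB proteins act as dimers. In resting B cells the dimers are held in the cytoplasm by IκB proteins, and signals from Toll-like receptors, CD40 or the B cell receptor lead to IκB phosphorylation and degradation, so that the dimers enter the nucleus. Several NF-kB genes, among them genes of its own inhibitors, are known targets of these dimers, which gives the pathway negative feedback. RelA (encoded by *Rela*) and c-Rel (*Rel*) carry transactivation domains, p50 is made from the *Nfkb1* product and p52 from that of *Nfkb2*, and RelB pairs mainly with p52 in the non-canonical pathway. c-Rel is abundant in lymphocytes and is known for its role in B cell proliferation and survival.

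The upstream sequences of these genes were read for a κB motif, as a description. The motif was shortened after matches of a longer form had been seen. Several NF-kB genes are also known targets of the dimers, so the share of matches is not independent of the choice of genes. The 250 bases before a RefSeq transcription start (GRCm38.p6) are printed 5′ to 3′ along the transcript for 2 subunits and 3 inhibitors in which a shortened κB motif, GGGNNNTTC or its reverse complement GAANNNCCC, was found, and for *Nfkbib*, in which it was not. Capitals mark the matches.
Rel, chr11:23770970-23771219, minus strand: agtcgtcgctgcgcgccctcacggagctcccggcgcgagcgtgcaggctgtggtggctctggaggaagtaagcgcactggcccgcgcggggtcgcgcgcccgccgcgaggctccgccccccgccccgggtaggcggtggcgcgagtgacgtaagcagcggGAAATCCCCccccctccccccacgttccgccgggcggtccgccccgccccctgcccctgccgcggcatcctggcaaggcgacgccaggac
Nfkb2, chr19:46304487-46304736, plus strand: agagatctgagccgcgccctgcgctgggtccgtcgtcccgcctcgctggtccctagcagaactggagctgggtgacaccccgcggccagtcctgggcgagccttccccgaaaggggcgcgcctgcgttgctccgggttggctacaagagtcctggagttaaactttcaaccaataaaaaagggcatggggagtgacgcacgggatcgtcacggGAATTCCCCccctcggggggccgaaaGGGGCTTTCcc
Nfkbia, chr12:55492648-55492897, minus strand: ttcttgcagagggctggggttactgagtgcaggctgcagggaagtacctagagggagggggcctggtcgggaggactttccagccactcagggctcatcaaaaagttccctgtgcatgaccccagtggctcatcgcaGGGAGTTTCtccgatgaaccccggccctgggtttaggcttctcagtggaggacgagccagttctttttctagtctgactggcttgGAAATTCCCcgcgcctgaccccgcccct
Nfkbie, chr17:45555450-45555699, plus strand: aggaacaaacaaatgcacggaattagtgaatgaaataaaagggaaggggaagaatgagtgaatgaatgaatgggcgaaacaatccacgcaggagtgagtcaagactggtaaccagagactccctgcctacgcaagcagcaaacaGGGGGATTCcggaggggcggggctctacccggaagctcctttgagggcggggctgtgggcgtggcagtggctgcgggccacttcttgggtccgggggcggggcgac
Tnfaip3, chr10:19015411-19015660, minus strand: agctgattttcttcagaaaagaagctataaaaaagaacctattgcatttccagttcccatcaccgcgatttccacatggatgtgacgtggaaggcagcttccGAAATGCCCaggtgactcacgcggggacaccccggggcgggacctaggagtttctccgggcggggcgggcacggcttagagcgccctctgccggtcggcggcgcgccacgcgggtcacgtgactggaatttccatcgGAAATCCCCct
Nfkbib, chr7:28766645-28766894, minus strand: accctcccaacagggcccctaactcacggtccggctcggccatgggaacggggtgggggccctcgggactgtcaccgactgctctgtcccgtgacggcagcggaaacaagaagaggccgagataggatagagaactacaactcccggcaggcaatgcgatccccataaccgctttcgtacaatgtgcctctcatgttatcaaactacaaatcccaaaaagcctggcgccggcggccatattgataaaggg

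Windows of 300 bases (250 before and 50 after the start) were given for 7 of the 10 genes, and 6 of the 7 held the motif on either strand. The gene without a match was *Nfkbib*. Across all genes with such a window, 4282 of 27025 (15.8%) had at least 1 match. The match nearest to the start within the printed bases began 90 bases upstream in *Rel*, 28 in *Nfkbia*, 106 in *Nfkbie* and 11 in *Tnfaip3*. *Nfkbia* and *Tnfaip3* each had 1 more match within the printed bases and 1 shortly after the start. *Nfkb2* had matches in each of its 3 windows, and the window shown lies within the gene, before an internal start, with matches that began 37 and 11 bases upstream. *Rela*, whose window is not printed, had 1 match, 97 bases upstream of a start that lies within the gene. The match, at chr19:5637444-5637452, also lies within the gene, whose first base is 5637442. Among 24 listed target genes with a window, 8 (33.3%) held the motif. Matches of the forward and reverse forms did not overlap in the windows of these genes. A match is a description of letters, and binding was not measured here.

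Levels are given in FPKM (fragment counts scaled by transcript length and library size), which can be compared between genes. The numbers of reads behind them are unknown. The sums of FPKM over all genes were 477079 to 491459 on day 0 and 547355 to 563586 on day 3. The targeted gene, *Slc16a1*, had 4.33 and 3.80 FPKM in *Mb1*Cre on day 0 against 3.71 and 4.06 FPKM in those with the *Mct1*f/f*Mb1*Cre label, a difference that limma did not call (log2 fold change -0.05, adjusted p = 0.844). On day 3 it had 22.6 and 23.0 FPKM against 10.8, 9.81 and 9.50 FPKM (log2 fold change -1.11, SE 0.07, adjusted p = 9.07e-06). *Slc16a1* therefore separates the genotypes on day 3 and does not on day 0, and the day 0 libraries are named by their labels. The FPKM sum over 8 B cell markers was 14067 to 15602 on day 0 and 8636 to 9231 on day 3, with none of the markers at 0. The sum over 12 myeloid markers was 1231 to 2085 FPKM on day 0 and 74.0 to 112.2 FPKM on day 3, and all 12 were lower in every day 3 library of either genotype. Over 8 erythroid markers it fell from a range of 128.2 to 235.0 FPKM to one of 4.38 to 8.13 FPKM, with 3 of the 8 at 0 in every library of each day 3 group. *Ddx3y*, a Y-linked gene, was at 0.24 FPKM or less in 3 of the 4 day 0 libraries, at 31.1 FPKM in the other (*Mct1*f/f*Mb1*Cre replicate 1) and at 14.7 to 16.9 FPKM in all 5 on day 3. In *Mb1*Cre, the day and the sex of the mice cannot be told apart. By *Ddx3y*, sex was also unevenly spread between the genotypes on day 0, and its part in that comparison and in the interaction was not tested.

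On day 0 the same order of levels was seen in both genotypes. *Nfkbia*, which encodes IκBα, the main inhibitor that is resynthesised after NF-kB activation, stood first with a mean of 163.5 FPKM ± 10.6 (SD, n = 2) in *Mb1*Cre and 150.7 FPKM ± 13.2 (SD, n = 2) where the label was *Mct1*f/f*Mb1*Cre. It was followed by *Nfkb2*, *Nfkb1* and *Rela*, then by *Nfkbie* and *Relb*, whose values overlapped, and by *Nfkbib*, *Rel*, *Tnfaip3* and *Nfkbiz*. *Nfkbiz*, which encodes the nuclear protein IκBζ, had the lowest mean of the 10 in all 4 groups. On day 3 *Nfkb1* stood first. Most of the genes were abundant. The mean levels of 8 of the 10 lay at or above percentile 74.2 of the tested genes in every group, while *Tnfaip3* ranged from percentile 54.8 to 86.7 and *Nfkbiz* from 47.5 to 66.6.

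**Figure D1:**
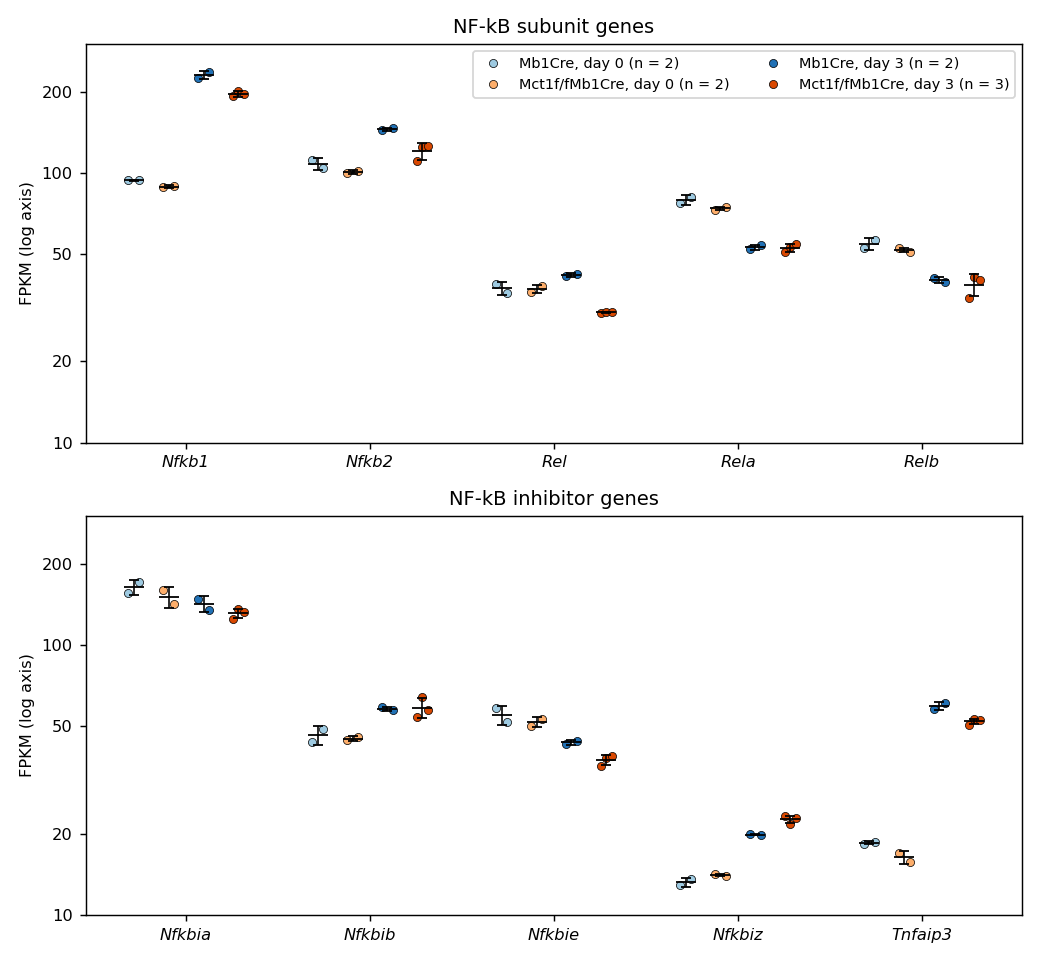
FPKM (log axis) of the 5 subunit genes (top) and the 5 inhibitor genes (bottom) in each of the 9 libraries; each point is a library, the horizontal line is the group mean and the bars are ± SD. *Nfkb1* and *Tnfaip3* lie higher on day 3 in both genotypes, and the 3 *Rel* points of activated *Mct1*f/f*Mb1*Cre cells (30.3 to 30.6 FPKM) lie below those of every other group.

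Activation changed the subunits in opposite directions. In *Mb1*Cre, *Nfkb1* went from 94.3 and 93.7 FPKM to 224.3 and 236.4 FPKM, a log2 fold change of 1.28 (SE 0.04, adjusted p = 2.36e-10 from limma). In *Mct1*f/f*Mb1*Cre it went from 88.2 and 89.5 FPKM to 191.7, 200.4 and 195.7 FPKM (log2 fold change 1.13, SE 0.04, adjusted p = 2.82e-10). All day 3 values therefore exceeded all day 0 values about 2-fold. *Rela* moved the other way, from 77.1 and 81.6 FPKM to 52.2 and 53.8 FPKM in *Mb1*Cre (log2 fold change -0.57, SE 0.05, adjusted p = 5.44e-07) and from 73.0 and 74.6 FPKM to 50.8, 52.9 and 54.3 FPKM in *Mct1*f/f*Mb1*Cre (log2 fold change -0.48, SE 0.04, adjusted p = 1.09e-06). *Relb* was also lower on day 3, at 34.4 to 41.0 FPKM against 51.0 to 56.4 FPKM over both genotypes, with log2 fold changes of -0.43 and -0.42. *Nfkb2* was higher, at 110.6 to 146.3 FPKM against 99.6 to 111.9 FPKM, with log2 fold changes of 0.42 in *Mb1*Cre and 0.25 in *Mct1*f/f*Mb1*Cre. The latter no longer passed with quantile normalization (0.062, adjusted p = 0.346 from limma) or with equal FPKM totals (0.077, adjusted p = 0.231). The fall of *Rela* in *Mb1*Cre was -0.36 with median-of-ratios scaling.

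*Rel* stood apart from the other subunits, since its direction as deposited differed between the genotypes, although in *Mb1*Cre it flipped with the scaling. In *Mb1*Cre it went from 38.7 and 35.9 FPKM to 41.3 and 42.3 FPKM with activation (log2 fold change 0.16, SE 0.05, adjusted p = 0.0102 from limma). In *Mct1*f/f*Mb1*Cre it went from 36.2 and 38.0 FPKM to 30.3, 30.5 and 30.6 FPKM (log2 fold change -0.28, SE 0.05, adjusted p = 0.000147). With every library scaled to the same FPKM total the change in *Mb1*Cre was -0.04 (adjusted p = 0.564), with quantile normalization it was 0.09 (adjusted p = 0.107), and without *Mb1*Cre day 0 replicate 2 or day 3 replicate 2 the adjusted p was 0.0939 and 0.0607. The fall in *Mct1*f/f*Mb1*Cre kept its sign under each scaling tried, but with median-of-ratios scaling it was -0.06 (adjusted p = 0.182). These values are best read against the median of all tested genes, which was -0.12 in *Mb1*Cre and -0.14 in *Mct1*f/f*Mb1*Cre as deposited, and -0.31 and -0.30 with equal totals.

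Among the inhibitors, *Tnfaip3* and *Nfkbiz* were the ones called higher, by a rule that asks for a log2 fold change beyond 0.5. *Tnfaip3* encodes A20, a ubiquitin-editing enzyme that ends signalling to the IκB kinase. It rose from 18.4 and 18.7 FPKM to 58.1 and 60.9 FPKM in *Mb1*Cre (log2 fold change 1.63, SE 0.05, adjusted p = 1.43e-10 from limma) and from 16.9 and 15.7 FPKM to 50.8, 53.1 and 52.6 FPKM in *Mct1*f/f*Mb1*Cre (log2 fold change 1.62, SE 0.05, adjusted p = 6.86e-11). *Nfkbiz* rose from 12.9 and 13.6 FPKM to 19.9 and 19.7 FPKM in *Mb1*Cre and from 14.1 and 14.0 FPKM to 23.2, 21.8 and 22.8 FPKM in *Mct1*f/f*Mb1*Cre, with log2 fold changes of 0.55 and 0.65. With equal FPKM totals these were 0.36 and 0.48, and with a pseudocount of 5 the first was 0.45, so that the call of *Nfkbiz* ended there although the adjusted p still passed. The 3 classical IκB genes changed less. *Nfkbib* (IκBβ) had log2 fold changes of 0.32 and 0.37, and *Nfkbie* (IκBε) of -0.33 and -0.46. *Nfkbia* had -0.20 in both genotypes (adjusted p = 0.0205 and 0.0144), although the sign turned with median-of-ratios scaling (0.0077 and 0.019). Its adjusted p was 0.146 without *Mb1*Cre day 0 replicate 2, 0.165 without *Mb1*Cre day 3 replicate 2, 0.177 without *Mct1*f/f*Mb1*Cre day 0 replicate 1 and 0.0505 without *Mct1*f/f*Mb1*Cre day 3 replicate 1.

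A gene was called where its adjusted p was below 0.05 and its log2 fold change exceeded 0.5 in either direction. By this rule 4 of the 10 genes were called in *Mb1*Cre (3 higher, 1 lower), where 57.8% of all tested genes were called, and 3 of the 10 in *Mct1*f/f*Mb1*Cre (all higher), where 56.5% were. By the adjusted p alone all 10 passed in either genotype, beside 84.6% and 85.5% of all genes. Besides the losses of *Rel*, *Nfkb2* and *Nfkbia* given above, 3 changes in *Mb1*Cre then missed 0.05 under another setting. These were *Nfkbib* with equal totals (0.12, adjusted p = 0.105), *Nfkbie* with median-of-ratios scaling (-0.12, adjusted p = 0.0694) and *Nfkbia* with no filter on low values (adjusted p = 0.0530). They split into 6 higher and 4 lower in *Mb1*Cre, where 37% and 47.5% of all genes were higher and lower, and into 5 and 5 in *Mct1*f/f*Mb1*Cre (36.4% and 49.1%). The share of NF-kB genes called was thus no higher than that of genes in general. No member's day 0 and day 3 values overlapped in either genotype, which also held for 91.9% and 89.8% of all tested genes. The fall of the myeloid and erythroid marker sums and of the B cell marker sum given above accompanied every one of these changes. The sum over 5 plasma cell markers rose from 134.5 and 150.5 FPKM to 379.3 and 393.2 FPKM in *Mb1*Cre, with 3 markers higher and 1 lower, and from 191.8 and 234.9 FPKM to between 321.4 and 352.0 FPKM in *Mct1*f/f*Mb1*Cre, with 2 higher and 3 lower. Of 10 T and NK cell markers 9 were lower on day 3 in either genotype and *Thy1* was higher. The part of these markers in the results was not tested. In bulk RNA, fewer cells of a type and less RNA per cell cannot be told apart.

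**Figure D2:**
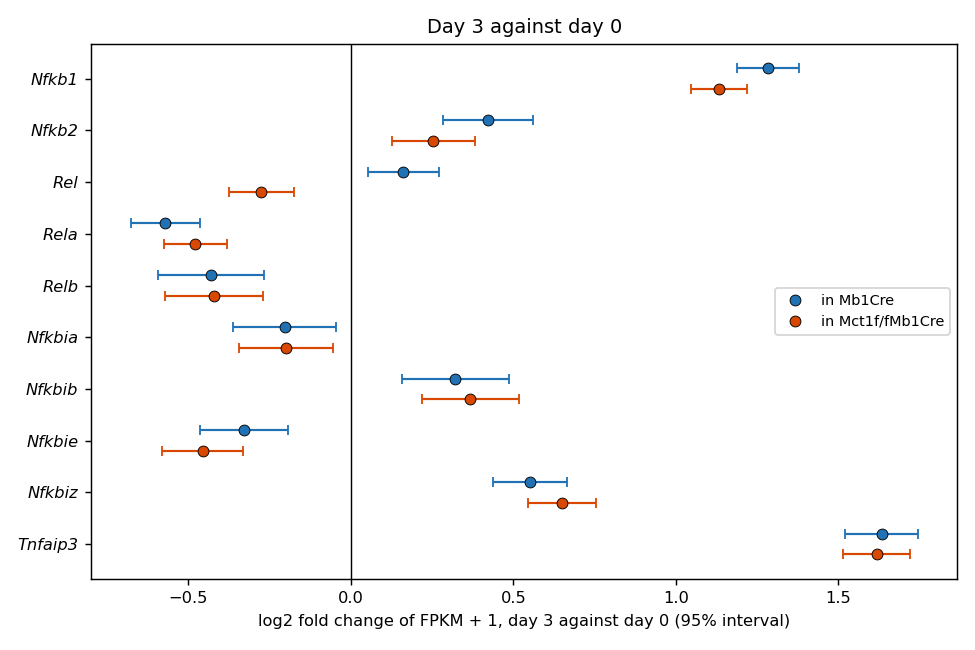
Log2 fold change of FPKM + 1 between day 3 and day 0 for the 10 genes, in *Mb1*Cre (blue) and *Mct1*f/f*Mb1*Cre (orange); bars are 95% intervals from limma and filled points passed an adjusted p of 0.05. *Rel* is the gene whose 2 points lie on opposite sides of 0 (0.16 and -0.28, the first of which is -0.04 with every library scaled to the same total).

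These changes altered the make-up of the subunit transcripts. *Nfkb1* made up 25.2% of the summed FPKM of the 5 subunits in the day 0 groups and 45.1% ± 0.69 (SD, n = 2) in *Mb1*Cre and 44.8% ± 1.04 (SD, n = 3) in *Mct1*f/f*Mb1*Cre on day 3. The share of *Rela* went from 21.3% and 21.0% to 10.4% and 12.0%, and that of *Relb* from 14.6% and 14.7% to 7.87% and 8.78%. *Nfkb2* held a like share on both days, with group means of 27.5% to 29.0%. *Rel* accounted for 9.99% and 10.5% on day 0, and on day 3 for 8.17% and 8.22% in *Mb1*Cre and 6.78% to 7.25% in *Mct1*f/f*Mb1*Cre. The summed subunit level was 510.3 FPKM ± 11.2 (SD, n = 2) in *Mb1*Cre and 438.0 FPKM ± 17.5 (SD, n = 3) in *Mct1*f/f*Mb1*Cre on day 3, against 373.2 and 352.1 FPKM on day 0. The sum over the 5 inhibitors changed less, from 296.7 and 277.9 FPKM to 322.8 and 301.7 FPKM. The inhibitors' sum per subunits' sum was thus 0.772 to 0.818 in *Mb1*Cre and 0.761 to 0.818 in the other genotype on day 0, and on day 3 it was 0.612 and 0.654 in *Mb1*Cre and 0.679 to 0.695 in *Mct1*f/f*Mb1*Cre. *Nfkb1* was the largest term of the subunit sum on day 3. Its mean went from 94.0 to 230.3 FPKM in *Mb1*Cre and from 88.9 to 195.9 FPKM in *Mct1*f/f*Mb1*Cre, so the ratio depends heavily on this gene. It is a ratio of transcript sums, and the balance of inhibitor and subunit proteins was not measured.

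**Figure D3:**
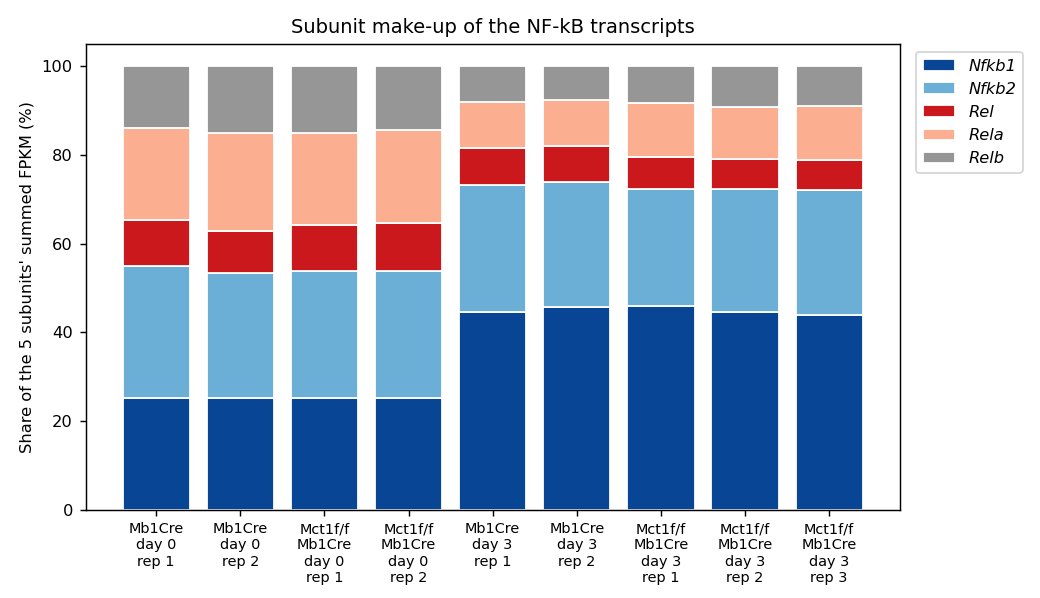
Share of each subunit gene in the summed FPKM of the 5 subunits (%), in each of the 9 libraries. The *Nfkb1* share is 25.2% in the day 0 libraries and 43.8% to 45.9% on day 3, while the *Rela* share falls to between 10.4% and 12.2%.

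On day 3, *Mct1*-deficient B cells held less *Rel* and *Nfkb1* transcript than *Mb1*Cre B cells. *Rel* had 41.3 and 42.3 FPKM in *Mb1*Cre against 30.3, 30.5 and 30.6 FPKM, so that the mean of the mutant was 72.9% of the control mean (log2 fold change -0.44, SE 0.05, adjusted p = 0.000145 from limma). The SD of *Rel* on day 3 was 0.15 FPKM in the mutant and 0.73 FPKM in the control. On day 0 it was 1.29 FPKM in the mutant and 2.04 FPKM in the control. The labels name no mouse, so the spread between libraries may be technical. *Nfkb1* had 224.3 and 236.4 FPKM against 191.7, 200.4 and 195.7 FPKM, or 85.1% of the control mean (log2 fold change -0.23, SE 0.04, adjusted p = 0.00277). Both differences passed an adjusted p of 0.05 in each of the 11 other settings in which they were tested and with each of the 9 libraries left out in turn. The log2 fold changes then ran from -0.46 to -0.40 for *Rel* and from -0.27 to -0.19 for *Nfkb1*.

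A further 4 genes passed by the adjusted p. *Nfkb2* had 143.8 and 146.3 FPKM in *Mb1*Cre and 110.6, 124.6 and 126.0 FPKM in *Mct1*f/f*Mb1*Cre (log2 fold change -0.27, SE 0.06, adjusted p = 0.0101 from limma). *Tnfaip3* had 58.1 and 60.9 FPKM against 50.8, 53.1 and 52.6 FPKM (-0.19, adjusted p = 0.0212), and *Nfkbie* 43.0 and 44.2 FPKM against 35.8, 38.0 and 38.7 FPKM (-0.21, adjusted p = 0.0274). *Nfkbiz* differed in the other direction, with 19.9 and 19.7 FPKM against 23.2, 21.8 and 22.8 FPKM (0.18, adjusted p = 0.0272). The values of the genotypes did not overlap for any of these 4 genes, but the calls did not hold in every setting. *Nfkb2* passed in each of the 11 other settings, *Nfkbiz* in 9, and *Nfkbie* and *Tnfaip3* in 7 each. The adjusted p of *Nfkbie* was 0.0711 with no filter on low values, 0.0723 with quantile normalization and 0.0559 with no variance trend, and that of *Tnfaip3* was 0.0570 with quantile normalization and 0.0512 with equal totals. With the replicate number as a block it was 0.0658 for *Nfkbie*, 0.115 for *Nfkbiz* and 0.0776 for *Tnfaip3*. Number 3 occurs only in *Mct1*f/f*Mb1*Cre day 3, so the block fits that library exactly. The log2 fold changes are then those of the fit without it. Without *Mb1*Cre day 3 replicate 1 the adjusted p was 0.0642 for *Nfkb2*, 0.0653 for *Tnfaip3*, 0.109 for *Nfkbie* and 0.131 for *Nfkbiz*, and without *Mb1*Cre day 3 replicate 2 it was 0.0789, 0.170, 0.161 and 0.137. Without *Mct1*f/f*Mb1*Cre day 3 replicate 1 it was 0.0617 for *Tnfaip3*, 0.0774 for *Nfkbie* and 0.0737 for *Nfkbiz*, without replicate 2 of that group 0.0579 for *Nfkbie*, and without replicate 3 it was 0.0547 for *Tnfaip3* and 0.0837 for *Nfkbiz*.

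The remaining 4 genes did not pass. *Rela*, the partner of p50 in the classical dimer, had 52.2 and 53.8 FPKM against 50.8, 52.9 and 54.3 FPKM, with a log2 fold change of -0.01 and a 95% interval of -0.11 to 0.09. The intervals were -0.21 to 0.09 for *Relb*, -0.26 to 0.03 for *Nfkbia* and -0.14 to 0.16 for *Nfkbib*. For each of these 4 the libraries of the genotypes overlapped. *Relb* in *Mct1*f/f*Mb1*Cre replicate 1, at 34.4 FPKM, was below the 41.0 and 40.0 FPKM of replicates 2 and 3, and *Nfkb2* was also lowest in that library.

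No member reached the log2 limit of 0.5 on day 3 (0 called, beside 2.42% of all tested genes), and 6 passed by the adjusted p alone (5 lower, 1 higher), beside 15.2% of all genes (9.21% lower, 6.03% higher); 6 also had an unadjusted p under 0.05. The median log2 fold change of the 10 was -0.15 and that of all tested genes -0.01. Values did not overlap between the genotypes for 6 of the 10 and for 47.1% of all tested genes. The subunit balance moved with these differences: *Rel* per *Rela* was 0.786 and 0.791 in *Mb1*Cre and 0.564 to 0.597 in *Mct1*f/f*Mb1*Cre, where day 0 libraries of both genotypes had 0.440 to 0.510. *Nfkbia* per *Rel* was 3.19 and 3.60 against 4.13 to 4.45. Marker sums also differed by genotype on day 3. The myeloid sum was 105.0 and 112.2 FPKM in *Mb1*Cre and 74.0 to 77.5 FPKM in *Mct1*f/f*Mb1*Cre, with 6 of its 12 markers higher and 2 lower in every mutant library. Most of this sum was *Ly6c2*, with means of 83.3 and 40.5 FPKM, so the lower sum does not describe the other markers. The plasma cell sum was 379.3 to 393.2 FPKM against 321.4 to 352.0 FPKM, with 2 of 5 markers higher and 3 lower, and the sum over 10 T and NK cell markers 128.8 to 129.9 FPKM against 91.4 to 108.8 FPKM. Of these 10 markers 2 were higher and 2 lower, and most of the sum was *Thy1*, with means of 111.7 and 78.8 FPKM. The B cell sum was 8636 and 8954 FPKM against 9124 to 9231 FPKM, with 4 of 8 markers higher and 3 lower. Their part in the differences was not tested.

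**Figure D4:**
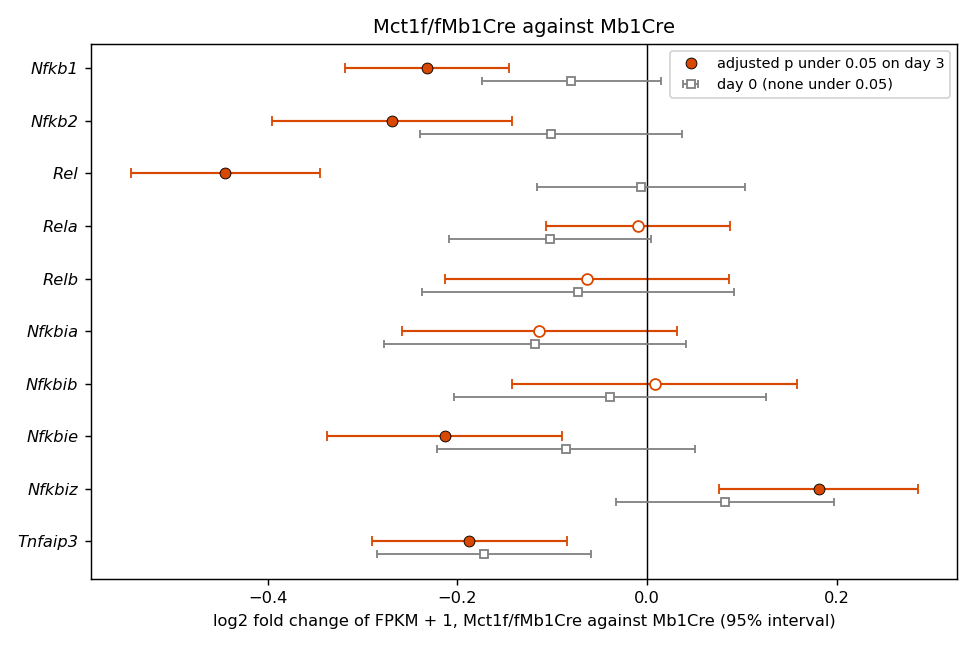
Log2 fold change of FPKM + 1 between *Mct1*f/f*Mb1*Cre and *Mb1*Cre on day 3 (orange circles, filled where the adjusted p is under 0.05) and on day 0 (grey squares); bars are 95% intervals from limma. On day 3 *Rel* is farthest to the left (-0.44) and *Nfkbiz* is the filled point to the right of 0 (0.18), while on day 0 no gene passed.

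On day 0 none of the 10 genes was called between the genotypes by limma, with or without the limit on fold change, beside 0.277% and 0.416% of all tested genes. *Tnfaip3* was the 1 member with an unadjusted p under 0.05, at 18.4 and 18.7 FPKM against 16.9 and 15.7 FPKM (log2 fold change -0.17, 95% interval -0.28 to -0.06, adjusted p = 0.246). *Rel* had a log2 fold change of -0.01 with an interval of -0.12 to 0.10, and *Nfkb1* one of -0.08 with an interval of -0.17 to 0.01. For 6 of the 10 the values did not overlap, which held for 38.4% of all tested genes. These comparisons rest on the labels, since *Slc16a1* did not differ on day 0. *Ddx3y* was at 0.02 and 0.24 FPKM in the control libraries and at 0.20 and 31.1 FPKM in the mutant ones, so sex was not balanced.

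Whether the response to activation depended on genotype was tested by the interaction of genotype and day. *Rel* was the 1 member that passed by the adjusted p, beside 9.42% of all tested genes in either direction and 5.61% lower (log2 difference -0.44, SE 0.07, 95% interval -0.59 to -0.29, adjusted p = 0.0041 from limma). It passed in each of the 10 other settings and with each library left out, at -0.49 to -0.38. None of the 10 passed with the log2 limit as well, beside 3.23% of all genes, and 2 had an unadjusted p under 0.05. The other was *Nfkb1* (-0.15, 95% interval -0.28 to -0.02, adjusted p = 0.131). For *Tnfaip3* the interaction was -0.02 with an interval of -0.17 to 0.14, and for *Nfkbia* 0.0046 with an interval of -0.21 to 0.22. The day 0 term of each interaction again rests on the labels and on groups unbalanced in *Ddx3y*.

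Other genes of the pathway were read from lists by function. These lists were chosen with earlier results of these data known. The shares of all tested genes are therefore given beside their counts as a description, and not as a test of the lists. Of 30 listed target genes of NF-kB outside the pathway, all tested, 7 were called lower and none higher in *Mct1*-deficient B cells on day 3, beside 1.53% of all tested genes called lower. By the adjusted p alone 17 were lower and 1 higher, beside 9.21% and 6.03% of all tested genes. Their median log2 fold change was -0.32, against -0.01 for all tested genes. *Ccl22*, a chemokine, had 36.4 FPKM in *Mb1*Cre and 11.7 FPKM in *Mct1*f/f*Mb1*Cre (group means, log2 fold change -1.56, SE 0.11, adjusted p = 1.27e-05 from limma). *Il6*, an inflammatory cytokine, had 12.1 and 3.82 FPKM (-1.44), and *Cd80*, a co-stimulatory ligand for T cells, 11.5 and 5.32 FPKM (-0.99). The other 4 called genes, named because they complete the count, were *Il10*, *Ebi3*, *Bcl2a1d* and *Cd86*, at -0.98, -0.73, -0.68 and -0.52. *Bcl2a1d* and *Bcl2a1b* are near-identical copies, so that their reads may be split between them. *Ltb*, which encodes lymphotoxin β, was the gene that was higher (0.18, adjusted p = 0.046). On day 0 none of the 30 was called.

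**Figure D5:**
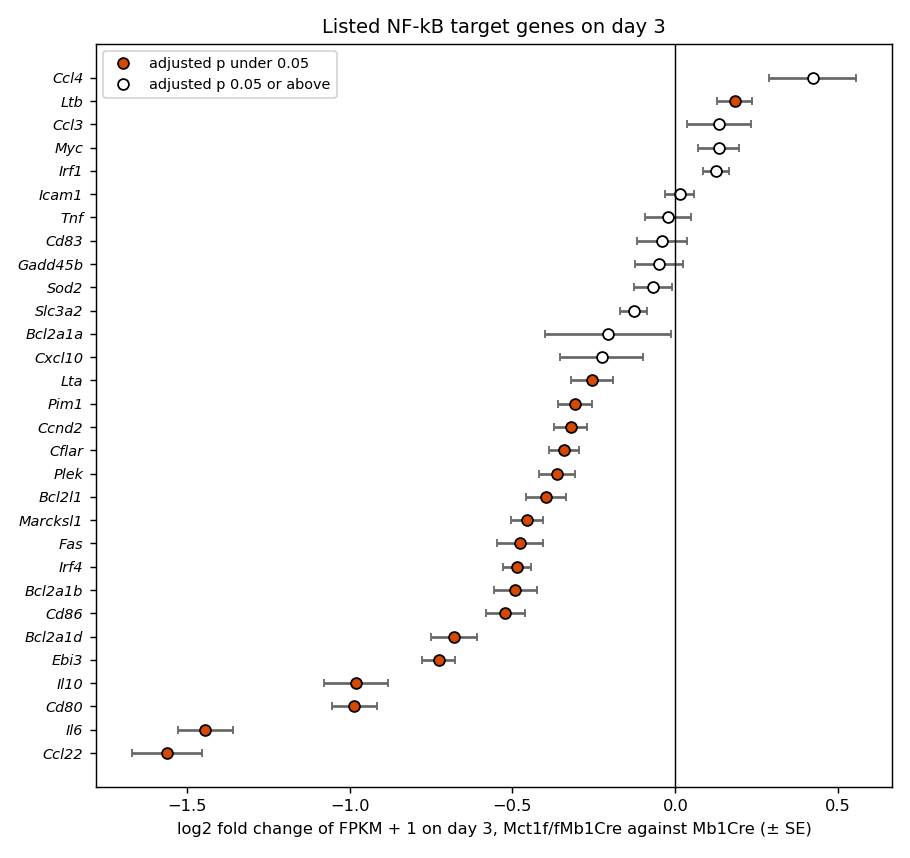
Log2 fold change of FPKM + 1 on day 3 between *Mct1*f/f*Mb1*Cre and *Mb1*Cre for the 30 listed NF-kB target genes, sorted by value; bars are ± SE from limma and filled points have an adjusted p under 0.05. *Ccl22* and *Il6* are farthest to the left (-1.56 and -1.44), 17 filled points lie to the left of 0 and 1 (*Ltb*, 0.18) to the right. The list was chosen with earlier results of these data known.

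With activation, 19 of the 30 targets were called higher and 4 lower in *Mb1*Cre, and 15 were called higher with 5 lower in *Mct1*f/f*Mb1*Cre (24.8% and 33% of all tested genes were called higher and lower in *Mb1*Cre, 23.4% and 33.2% in *Mct1*f/f*Mb1*Cre). In *Mb1*Cre the largest rises were those of *Il6* (3.64), *Bcl2a1d* (3.48) and *Ccl22* (3.42), and *Ltb*, *Bcl2a1a* and *Lta* fell the most (-3.28, -2.46 and -1.06). In *Mct1*f/f*Mb1*Cre the largest rises were those of *Bcl2l1* (2.92), which encodes the survival factor Bcl-xL, *Bcl2a1d* (2.65) and *Ebi3* (2.34), a subunit of IL-27 and IL-35, and *Ltb*, *Bcl2a1a* and *Lta* again fell the most (-3.03, -2.60 and -1.24). *Bcl2a1a* was at means of 0.77 and 0.56 FPKM on day 3, while *Bcl2a1b* rose (2.62 and 2.16), as *Bcl2a1d* did. Reads may be split among the *Bcl2a1* genes, so its fall may not be that of 1 gene. The interaction was called for 9 targets, all lower, led by *Ccl22* (-1.77), *Il6* (-1.56) and *Il10* (-1.04), beside 2.22% of all tested genes called lower. *Il6* and *Il10* were at or below 0.16 FPKM in the day 0 group means, where a fold change on the log2(FPKM + 1) scale understates the change.

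The genes upstream of the subunits were read in the same way. Of the 30 adaptors and kinases reported here, *Traf1*, an adaptor of the TNF receptor family, was called lower on day 3 (124.5 and 87.5 FPKM, log2 fold change -0.51, SE 0.08, adjusted p = 0.00141 from limma). On day 3, 6.03% of all tested genes were higher and 9.21% lower by the adjusted p alone, and of the 30 by this rule 3 were higher and 2 lower. In the interaction 3 were positive and 2 negative, beside 3.82% and 5.61% of all genes. Of 16 receptors that feed NF-kB, 14 were tested and none was called by limma on day 3, with 2 higher and 1 lower by the adjusted p alone. *Tlr9*, the receptor for unmethylated DNA, was called in the interaction (0.60), which was positive, as were 1.02% of all tested genes by the same rule. Of 18 other inhibitors and modulators, 17 were tested and none was called on day 3, with 2 higher by the adjusted p alone. On day 0 no gene of these 3 lists was called or passed by the adjusted p alone. The 19 tested immediate-early genes, which are quickly induced by handling of cells, were included as a check: none was called on day 3, with 3 lower by the adjusted p alone, and *Fosb* was called lower on day 0 (-0.90, adjusted p = 0.0118), beside 0.037% of all tested genes. By the adjusted p alone 2 were lower on day 0, beside 0.0647%. In the interaction *Fosb* (0.89) and *Jund* (0.51) were called.

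With activation more of the upstream genes were called lower than higher, beside 24.8% of all tested genes higher and 33% lower in *Mb1*Cre. In the mutant the background was 23.4% and 33.2%. In *Mb1*Cre 4 of these 30 adaptors and kinases were called higher and 14 lower, and in *Mct1*f/f*Mb1*Cre 4 higher and 14 lower. The largest rises in *Mb1*Cre were those of *Traf1* (2.24), *Ikbke* (1.37), an IκB kinase-related kinase, and *Birc2* (1.16), a ubiquitin ligase, and the largest falls those of *Prkcb* (-2.31), a protein kinase C, *Irak2* (-1.80) and *Traf5* (-1.61). In *Mct1*f/f*Mb1*Cre the same 6 genes led, at 1.75, 1.42, 0.91, -1.95, -1.76 and -1.41. Of the 14 tested receptors 1 was called higher and 8 lower in *Mb1*Cre, and in *Mct1*f/f*Mb1*Cre 2 were higher and 8 lower. *Tlr7* rose (0.85 and 0.77), *Cd40*, the receptor for T cell help, was called in *Mct1*f/f*Mb1*Cre (0.87), and *Tnfrsf1a* (-3.78 and -3.72), *Ltbr* (-2.62 and -2.59) and *Cd14* (-2.37 and -2.42) fell. *Cd14* is also one of the 12 myeloid markers, all of which were lower on day 3. *Tnfrsf1a* and *Ltbr* had day 3 means of 0.33 and 0.23 FPKM in *Mb1*Cre and of 0.58 and 0.32 FPKM in *Mct1*f/f*Mb1*Cre. Which cells held the receptor transcripts on day 0 was not tested. Of the 17 tested other inhibitors and modulators 3 were called higher and 7 lower in either genotype. In the mutant this order turned with median-of-ratios scaling, a check of the lists that was added after seeing the data, where 3 were higher and 2 lower. With that scaling 4 adaptors and kinases were higher in either genotype, and 11 were lower in *Mb1*Cre and 9 in *Mct1*f/f*Mb1*Cre. *Otulin*, a deubiquitinase of linear chains, rose from 56.1 to 160.6 FPKM in *Mb1*Cre and from 56.5 to 156.5 FPKM in *Mct1*f/f*Mb1*Cre. *Bcl3*, a nuclear IκB protein (0.80 and 0.95), and *Commd1* (0.73 and 0.81) rose too. *Nfkbid*, another nuclear IκB protein, fell from 71.5 to 10.4 FPKM in *Mb1*Cre and from 66.1 to 12.9 FPKM in *Mct1*f/f*Mb1*Cre (-2.68 and -2.27), opposite to its relative *Nfkbiz*. *Ppp4r1* fell too (-0.79 and -0.67), as did *Pdlim2* in *Mb1*Cre (-0.88) and *Tax1bp1* in *Mct1*f/f*Mb1*Cre (-0.77). Of the immediate-early genes 3 were called higher and 13 lower in *Mb1*Cre and 4 against 13 in *Mct1*f/f*Mb1*Cre, with *Atf3* (3.48 and 3.07), *Egr2* (2.05 and 1.85) and *Ier3* (0.80 and 0.74) rising and *Fos* (-4.47 and -4.34) and *Klf4* (-2.88 and -2.97) falling. *Fosb* (-3.14) completed the largest falls in *Mb1*Cre and *Dusp1* (-2.78) those in *Mct1*f/f*Mb1*Cre.

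Across the 9 libraries, the genes whose log2(FPKM + 1) followed each member most closely were found by Pearson's r, as a description. The 9 points fall into 2 days, so that a high r mostly records the same difference between days. The genes closest to *Nfkb1* were *Stat5a* and *Il2ra* (both 0.999), and those closest to *Tnfaip3* were *Apool* and *Rnf19b* (both 0.999). *Rel*, lowest in the activated mutant B cells, was followed by *Rbms1* (0.972) and *Bhlhe40* (0.969). *Rela* was followed by *Ptprs* and *Dnm2* (0.998 and 0.997), *Relb* by *Smarcd1* and *Thap3* (0.988 and 0.984), and *Nfkb2* by *Rps6kl1* and *Gnb4* (0.969 and 0.968). For the remaining inhibitors the closest genes were *Def6* for *Nfkbia* (0.953), *Sf3b5* and *Ctnnbl1* for *Nfkbib* (0.988 and 0.987), *Kansl3* and *Coq8a* for *Nfkbie* (0.983 and 0.982), and *Sox12* and *Wdr26* for *Nfkbiz* (0.996 and 0.994).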

How the data were processed

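RNA of splenic B cells from the 9 libraries was sequenced by the BGISEQ institute. The authors deposited one table of FPKM values per gene and library, rounded to 2 decimals. The submitters' processing notes name Bowtie2 and the builds GRCm38 and mm10; the counting tool and annotation are not given in the sources used here. The labels name a TRNzol extraction and the study's methods an RNeasy kit. FPKM hide the depth of each library, so no counting error could be given, and values keep differences in RNA make-up between days.

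From the deposited FPKM, log2(FPKM + 1) was analysed with limma 3.58.1 (R 4.3.3, trended variance) for 10823 genes whose mean reached 1 FPKM, with 1 mean for each of the 4 groups and Benjamini-Hochberg adjustment over all of them. Calls needed an adjusted p below 0.05 together with a log2 fold change beyond 0.5 in either direction, and the adjusted p alone was used beside it. Fold changes on the log2(FPKM + 1) scale understate those of low genes. Labels name no mouse or litter, so p-values measure only the spread between these libraries, which may be technical. The activation and interaction comparisons share groups with the genotype comparisons. On simulated data with 200 genes changed by a log2 fold change of 1 in the mutant of day 3, 99% were recovered on day 3 and 96.5% in the interaction, and with the change in the mutant of day 0, 97.5% were recovered on day 0. Smaller changes were not simulated.

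The 10 genes and all lists were chosen with earlier results of these data known. Named genes were every member, *Slc16a1*, the up to 3 called genes with the largest rise and fall in each list and comparison, and the 2 most correlated genes of each member. *Ddx3y*, *Thy1*, *Ly6c2*, 4 called targets and *Bcl2a1b* were named after their values were seen. A gene of the list of adaptors and kinases and a correlated gene are not reported here, and the list's counts leave the former out. Gene coordinates, upstream sequences and motif counts came from RefSeq tables of GRCm38.p6, matched by symbol and gene identifier; the motif was shortened after matches of a longer form had been seen. Alternatives were other pseudocounts, filters, scalings, limits, a replicate block, no variance trend, fits of only the groups compared, and each library left out.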

Additional observations from a re-analysis of the deposited data

Results flagged for a closer look

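Groups held 2 or 3 libraries, too few to look for an outlying library. Listed here are the results in which the genotype difference changed between day 0 and day 3 by the interaction term in limma (adjusted p under 0.05 over all tested genes) among the 10 members, the targeted gene and the named pathway genes. Among the members this was *Rel* (log2 difference of -0.44, adjusted p = 0.0041). As deposited, in *Mct1*f/f*Mb1*Cre all 3 activated libraries were below both untreated ones, and in *Mb1*Cre both activated libraries were above both untreated ones. The targeted gene *Slc16a1* had -1.06 (adjusted p = 0.000424), with no difference called on day 0.

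The target genes of NF-kB named above differed with negative values only, at -1.77 for *Ccl22*, -1.56 for *Il6*, -1.04 for *Il10*, -1.03 for *Cd80*, -0.83 for *Bcl2a1d*, -0.70 for *Ebi3*, -0.55 for *Cd86*, -0.49 for *Bcl2l1* and -0.45 for *Bcl2a1b*. Upstream genes differed in both directions, at 0.37 for *Prkcb*, -0.49 for *Traf1* and -0.26 for *Birc2* among adaptors and kinases, and at 0.60 for *Tlr9* and 0.43 for *Cd40* among receptors. *Nfkbid*, of the other inhibitors and modulators, had 0.41, and the immediate-early genes *Fosb* and *Jund* had 0.89 and 0.51.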

How the results depend on the processing

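The limit on fold change decided most counts. With no limit 10, 10, 6 and 1 members were called for activation in *Mb1*Cre, activation in *Mct1*f/f*Mb1*Cre, genotype on day 3 and the interaction, and with a log2 limit of 1 there were 2 for activation in *Mb1*Cre. With equal FPKM totals, and with quantile normalization, 5 were called for activation in *Mct1*f/f*Mb1*Cre, against 3. The scaling moves the median activation change over all genes, from -0.31 and -0.30 (equal totals) to 0.07 and 0.06 (median-of-ratios) in control and mutant, and the share of calls that were higher from 31.8% and 31.6% to 55.7% and 55.2%, against 42.9% and 41.4% as deposited.

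Members passing by the adjusted p alone for genotype on day 3 numbered 6, and 3 with a replicate block, under which *Nfkbie*, *Nfkbiz* and *Tnfaip3* no longer passed. Replicate number 3 occurs only in *Mct1*f/f*Mb1*Cre day 3, so a block fits that library exactly. For genotype on day 3 and the interaction, estimates with a block equal those without that library, so these settings are not separate checks. Between libraries of 2 groups with the same number, correlations of the deviations from the group means ran from -0.122 to 0.0642. In a group of 2 libraries these deviations mirror each other, so the correlations cannot decide whether the numbers pair the libraries. With the *Mb1*Cre day 0 numbers crossed, an alternative chosen after seeing the data, 4 passed. With 1 library left out the count ran from 2 to 6; it was 2 without either *Mb1*Cre day 3 library and 3 without *Mct1*f/f*Mb1*Cre day 3 replicate 1. Target genes lower on day 3 by the adjusted p numbered 15 to 17 under every setting tried.

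Signs turned only where the adjusted p then missed 0.05; the causes were not tested. With equal totals, *Rel* with activation in *Mb1*Cre was -0.036, *Rela* on day 3 0.0027 and the *Tnfaip3* interaction 0.0089. With median-of-ratios scaling *Nfkbia* with activation was 0.0077 in *Mb1*Cre and 0.019 in *Mct1*f/f*Mb1*Cre, *Rela* on day 3 0.0089 and *Rel* on day 0 0.0053. With quantile normalization *Rela* on day 3 was 0.00607, *Rel* on day 0 0.0036 and the *Tnfaip3* interaction 0.032. With either replicate block, as without *Mct1*f/f*Mb1*Cre day 3 replicate 3, the interactions of *Relb* and *Nfkbia* were -0.020 and -0.0018. With 1 library left out, values crossed 0 for genotype on day 3 in *Rela* (-0.031 to 0.017), *Relb* (-0.11 to 0.013) and *Nfkbib* (-0.058 to 0.060), on day 0 in *Rel* (-0.061 to 0.048) and *Nfkbib* (-0.12 to 0.040), and for the interaction in *Relb* (-0.039 to 0.086), *Nfkbia* (-0.084 to 0.093), *Nfkbib* (-0.032 to 0.13) and *Tnfaip3* (-0.067 to 0.036). Where a group was left with 1 library, that library is assumed to vary like the others.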
